A study of Mus musculus with 24 samples.

Results

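Gene expression in the retinal pigment epithelium (RPE) of wild type mice was compared between circadian time CT22 and CT19, the later against the earlier of 2 points of the late subjective night. Both groups were chosen by their labels alone: the 3 wild type libraries labelled CT22 (replicates 1, 3 and 6) and the 3 labelled CT19 (replicates 1, 2 and 4), which are 6 of the 24 libraries of the series. All 6 came from male mice 6 weeks old of the mixed strain C57BL/6/J x 129 SvEvBrd, and each library held the RPE of 1 eye, cut from the snap-frozen eye by laser capture. The other 18 libraries are wild type RPE at CT1 and CT10, and RPE of mice of the genotype Per1-/-Per2Brdm1, in which the clock genes Per1 and Per2 are altered, at CT1, CT10, CT19 and CT22, again with 3 libraries a group. The 6 Per1-/-Per2Brdm1 libraries at CT22 and CT19 are used below as a second pair of groups, and 2 of them pooled 2 eyes. Separate animals are not stated for the libraries, and the p-values below therefore speak of the spread among these libraries, which may be technical.

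The RPE is a single layer of pigmented cells between the photoreceptors and the choroid. It engulfs the tips that photoreceptor outer segments shed every day, mostly in a burst around dawn, and it regenerates visual pigment and supplies the outer retina with glucose. The molecular clock in such cells is a loop in which CLOCK and BMAL1 (gene Arntl) bind E-box motifs and switch on Per and Cry repressors, Rev-erb genes (Nr1d1, Nr1d2) and the PAR bZIP factors Dbp, Tef and Hlf. The repressors then shut off CLOCK and BMAL1, while REV-ERB and ROR proteins compete to set the level of Arntl. CT22 and CT19 both belong to the late subjective night, and their comparison asks what differs in this tissue within that stretch.

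No gene passed the test between CT22 and CT19 in wild type RPE. Of 20275 genes tested with edgeR's quasi-likelihood test, 0 (0%) had an adjusted p under 0.05, and the smallest adjusted p was 0.439. DESeq2 called 5 genes and limma voom 0. At an unadjusted p under 0.05, edgeR listed 1347 genes, of which 364 (1.8%) were higher and 983 (4.85%) were lower at CT22. The 3 CT22 values lay above all 3 CT19 values for 1057 genes (5.21%) and below all of them for 1895 genes (9.35%). By the sign of the log2 fold change alone, 11313 of the 20275 genes were lower and 8951 higher at CT22. These counts and shares are the background against which the counts below are read. The median log2 fold change (CT22 minus CT19) of all genes tested was -0.06.

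The libraries set how small a change could be seen. Total counts were 21728729 to 28858797 at CT22 and 24653507 to 27023608 at CT19. Other library measures did not overlap: 21869, 19534 and 19439 genes were detected at CT22, against 22475, 23479 and 23926 at CT19, and the TMM scaling factors were 0.990 to 1.06 at CT22 and 0.944 to 0.958 at CT19. The part of these in the larger number of lower genes was not tested. Among the 11478 genes with a mean of at least 5 CPM (read counts scaled to library size) over the 6 libraries, the median standard error (SE) of the log2 fold change was 0.23. For 80.3% of these genes the 95% interval lay wholly inside -1 to 1, so that a doubling or a halving was outside it. A gene that missed the threshold is therefore not shown to be equal at both times, and its interval gives the range of changes that these libraries leave.

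RPE markers were high in all 6 libraries. Rpe65, the isomerase of the visual cycle, had 4862, 4459 and 6265 CPM at CT22, against 4095, 6720 and 5931 CPM at CT19. Its log2 fold change was -0.10 (95% interval -0.71 to 0.51). Lrat, which makes the retinyl esters that RPE65 uses, was at 1099 to 1553 CPM at CT22 and 995 to 1775 CPM at CT19. Best1, a chloride channel gene and a defining RPE marker, was near 0, with 0 to 0.742 CPM at CT22 and 1.12 to 1.25 CPM at CT19. Of 26 RPE identity genes, 7 had a higher and 19 a lower mean at CT22, and their median log2 fold change was -0.09, beside -0.06 over all genes. It was 0.01 without CT19 replicate 2 or without CT22 replicate 3, -0.11 without CT19 replicate 1 and -0.12 without CT22 replicate 6. With the rod score, a library's mean log2 level of rod genes, as a covariate it was -0.33.

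RNA of other cells was present as well, and its amount varied among libraries, with means that differed between the groups. The summed level of 21 rod genes was 26737, 49854 and 23070 CPM at CT22, against 81885, 45169 and 38836 CPM at CT19. The sums overlapped, since CT22 replicate 3 lay above CT19 replicates 2 and 4, but all 21 rod genes had a lower mean at CT22, with a median log2 fold change of -0.69. That median was -0.25 without CT19 replicate 1 and -1.07 without CT22 replicate 3. Choroid genes ran the other way: 35 of 39 endothelial, mural and fibroblast markers had a higher mean at CT22, with a median of 0.40. That choroid median rose to 0.64 without CT22 replicate 3 and 0.67 without CT19 replicate 4. It fell to 0.27 without CT22 replicate 1 and 0.32 without CT19 replicate 1. Fitting the rod score put it at -0.02. The choroid sums were 3225, 1697 and 2974 CPM at CT22 and 1521, 1987 and 2632 CPM at CT19, again with overlap. In bulk RNA of a captured layer, fewer cells of a type and less RNA per cell cannot be told apart.

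**Figure D1:**
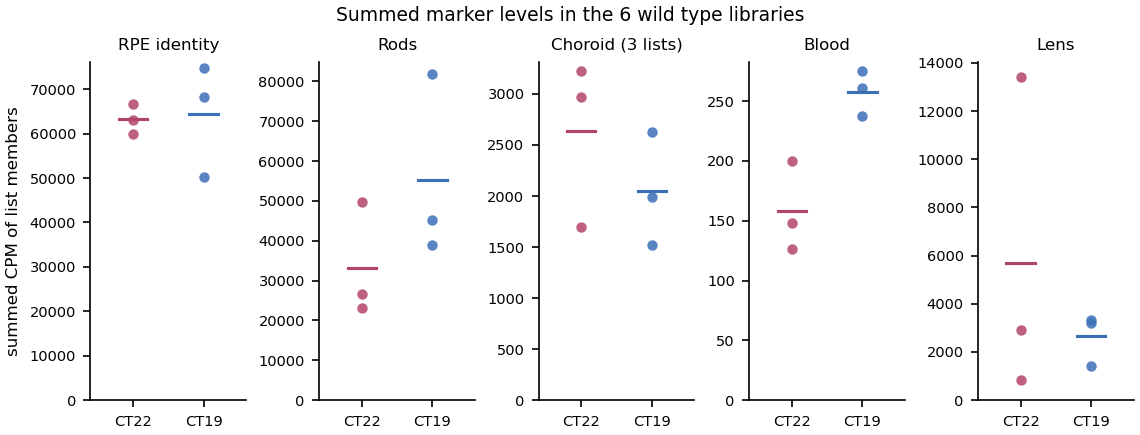
Summed CPM of marker lists in each wild type library, with CT22 on the left and CT19 on the right of each panel (points are libraries, bars are means of 3, and each panel has its own axis from 0). RPE identity sums overlapped, rod and choroid sums leaned in opposite directions with overlap, blood sums did not overlap, and the lens sum of 1 CT22 library reached 13400 CPM.

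Haemoglobin and other red cell genes separated the times without overlap in their summed level. The summed level of 6 tested blood genes was 148, 200 and 126.4 CPM at CT22, against 261, 275 and 238 CPM at CT19. Hbb-bs, an adult beta globin gene, had 81.0, 121.5 and 60.4 CPM at CT22 and 151.5, 162.5 and 140.9 CPM at CT19. All 3 CT22 libraries were below all 3 CT19 libraries. Its log2 fold change was -0.79 (SE 0.31, adjusted p = 0.735). Of the 6 genes, 4 were lower at CT22 without overlap (Hba-a1, Hba-a2, Hbb-bs and Alas2), Hbb-bt had a lower mean with overlap, and Slc4a1 had a higher mean, with a log2 fold change of 0.21. List members named here and below for groups that did not overlap were chosen after their values were seen. Alas2, the first enzyme of haem synthesis in red cells, was at 3.56 to 5.85 CPM at CT22 and 8.51 to 14.4 CPM at CT19. Globin genes have near-identical copies, so their counts could be split between copies.

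The 10 genes with a higher mean at CT22 and the smallest unadjusted p, among genes of at least 5 CPM, were Hkdc1, Plekhh2, Rn7sk, Dip2a, Lfng, Egr1, Uaca, Arrb1, Col4a2 and C130074G19Rik. None passed. The groups did not overlap for 8 of the 10, a count that the ranking itself favours. Their log2 fold changes were 0.50 to 1.47.

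Hkdc1 encodes a hexokinase domain protein that can phosphorylate glucose, the first step of glycolysis (ENSMUSG00000020080, GRCm38 chromosome 10, 62383137 to 62422491, minus strand). It had 92.7, 85.6 and 67.9 CPM at CT22, against 38.7, 57.7 and 42.7 CPM at CT19. The lowest CT22 library was above the highest CT19 library. The log2 fold change was 0.82 (SE 0.20, 95% interval 0.40 to 1.24, unadjusted p = 0.000449, adjusted p = 0.735). With each of the 6 libraries left out in turn it ran from 0.75 to 1.04, and it was 0.75 once the rod score entered the fit. Over the wild type day the mean of Hkdc1 was 39.6 CPM at CT1, 23.4 CPM at CT10, 46.4 CPM at CT19 and 82.1 CPM at CT22. CT22 was thus the highest of the 4 times.

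Egr1, an immediate early transcription factor that cells induce within minutes of a stimulus (ENSMUSG00000038418), had 14.96, 56.1 and 41.9 CPM at CT22 and 14.1, 11.9 and 14.8 CPM at CT19. Replicates 3 and 6 were far above the CT19 range, while replicate 1 was just above its upper end. The log2 fold change was 1.47 (SE 0.41, adjusted p = 0.735), the largest size among the 20 leading genes. Of the 17 tested immediate early genes, Egr1 included, 6 had a higher and 11 a lower mean at CT22, with a median of -0.11 that was 0.06 without CT19 replicate 1. Nr4a1, another early gene, was at 28.8 to 37.3 CPM at CT22 and 33.6 to 35.4 CPM at CT19.

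The other leading higher genes were of moderate level. Arrb1, the beta-arrestin that uncouples G protein-coupled receptors, had 71.8, 71.6 and 74.9 CPM at CT22, against 33.2, 50.5 and 47.6 CPM at CT19, a log2 fold change of 0.73 (SE 0.22). Lfng, a glycosyltransferase that modifies Notch, had 17.6, 11.5 and 11.5 CPM at CT22 and 4.62, 6.50 and 8.23 CPM at CT19, a log2 fold change of 1.06 (SE 0.30). Both were higher in every CT22 library. Rn7sk, the small nuclear RNA that holds back the elongation factor P-TEFb, had 23.8, 18.95 and 20.1 CPM at CT22 and 8.64, 6.00 and 10.4 CPM at CT19. This RNA has many near-identical copies, so its count is uncertain. Col4a2, a basement membrane collagen that endothelial cells and the RPE both make, had 130.1, 77.5 and 210.6 CPM at CT22 and 53.9, 79.7 and 80.9 CPM at CT19. Its groups overlapped, and its exons overlap those of Col4a1 on the opposite strand. Its log2 fold change of 0.96 was 0.54 with the choroid score as a covariate and also 0.54 without CT22 replicate 6.

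**Figure D2:**
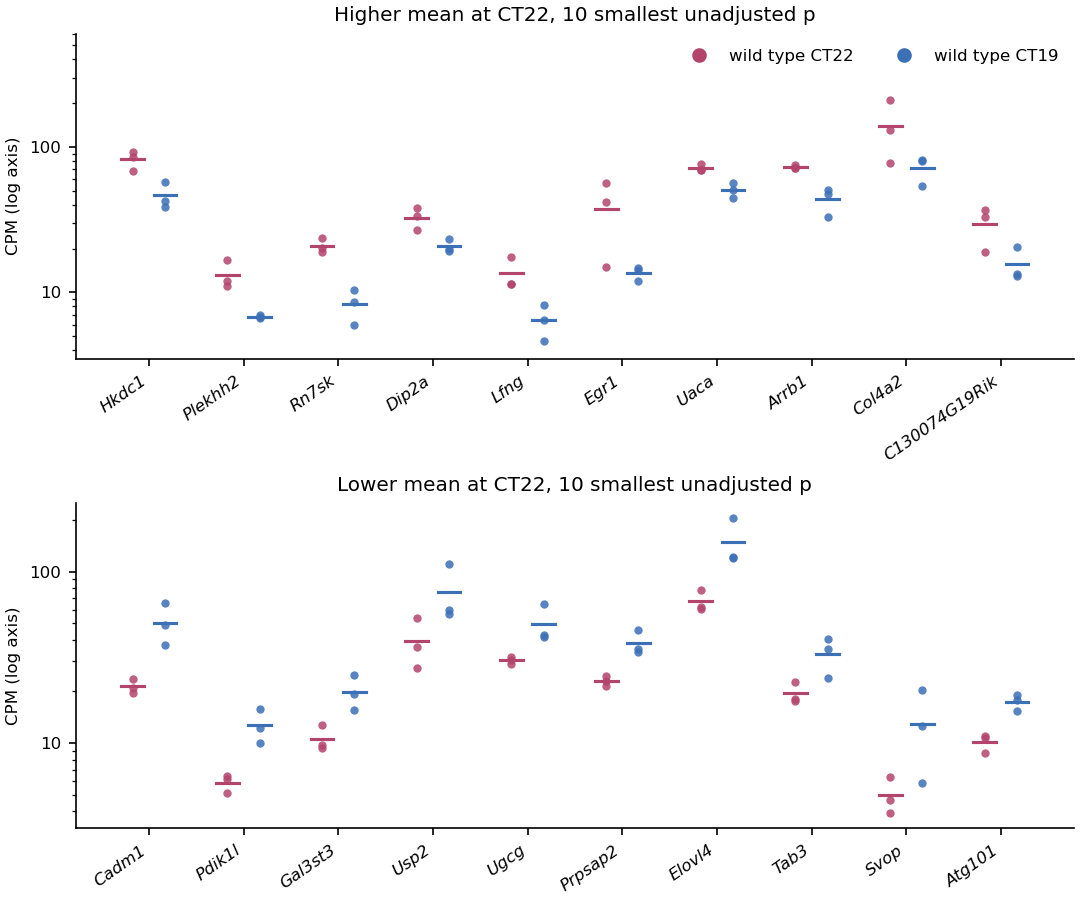
CPM (log axis) of the 10 leading higher genes (top) and the 10 leading lower genes (bottom) in the 3 wild type CT22 libraries, left of each pair, and the 3 wild type CT19 libraries, right of each pair (points are libraries, bars are means). The groups did not overlap for 17 of the 20 genes, and none of the 20 passed the test.

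The 10 leading genes with a lower mean at CT22 were Cadm1, Pdik1l, Gal3st3, Usp2, Ugcg, Prpsap2, Elovl4, Tab3, Svop and Atg101, with log2 fold changes of -1.37 to -0.70. The groups did not overlap for 9 of them, with Svop the exception. Cadm1, an adhesion molecule of the immunoglobulin family (ENSMUSG00000032076, GRCm38 chromosome 9, 47530173 to 47857637, plus strand), had 23.7, 20.9 and 19.6 CPM at CT22, against 65.1, 48.6 and 37.5 CPM at CT19. All CT22 libraries sat in a narrow band below the CT19 libraries. The log2 fold change was -1.24 (SE 0.26, 95% interval -1.77 to -0.70, unadjusted p = 7.1e-05, adjusted p = 0.48), which is the smallest p among genes of at least 5 CPM.

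The rod genes, lower at CT22 as well, moved with several of these values, and their part in them was not tested. Elovl4, which elongates very long chain fatty acids in photoreceptors, had 62.4, 78.2 and 60.9 CPM at CT22, against 205.2, 121.7 and 119.6 CPM at CT19. The change was -1.15 on the log2 scale (SE 0.30), and -0.59 when the rod score was fitted too. Cadm1 was at -0.80 and Svop, a synaptic vesicle protein gene, at -0.74 in the same fit, against -1.24 and -1.37 without the covariate. With it, 9 of the 10 lower genes lay nearer to 0. Ugcg, which makes glucosylceramide, was the exception, at -0.86 with the rod score and -0.70 without. Leaving out CT19 replicate 1 put Svop at -0.84, and leaving out CT19 replicate 4 put Ugcg at -0.44. For the higher genes 9 of 10 lay nearer to 0 in the same fit.

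Atg101, a subunit of the complex that starts autophagy, had 11.04, 8.76 and 10.7 CPM at CT22, against 19.2, 17.8 and 15.4 CPM at CT19, and did not overlap. On the log2 scale it differed by -0.78 (SE 0.21), and by -0.72 with the rod score. Pdik1l, a kinase gene, was at 5.10 to 6.41 CPM at CT22 and 10.02 to 15.9 CPM at CT19, with a log2 fold change of -1.11 (SE 0.26).

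Among clock genes, none of the 35 tested members of 3 lists passed. Of these, 30 had a lower and 5 a higher mean at CT22, and the groups overlapped for 29. For 26 of the 35 the 95% interval lay inside -1 to 1. The unadjusted p was under 0.05 for 5 genes, all lower, among them Usp2, Nr1d2, Prkaa1 and Sirt1.

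The genes driven through E-boxes and D-boxes had a median log2 fold change of -0.24, with 13 of 15 lower at CT22. The median was -0.10 without CT22 replicate 3 and -0.34 without CT22 replicate 6. Per1, a repressor of the clock (ENSMUSG00000020893, GRCm38 chromosome 11, 69095217 to 69109960, plus strand), had 45.4, 46.8 and 24.4 CPM at CT22, against 52.5, 41.3 and 43.9 CPM at CT19. The groups overlapped, with a log2 fold change of -0.24 (95% interval -0.90 to 0.42) that was 0.0026 without CT22 replicate 6 and -0.08 without CT19 replicate 1. Per2, its partner (ENSMUSG00000055866, GRCm38 chromosome 1, 91415982 to 91459324, minus strand), had 15.8, 10.8 and 27.8 CPM at CT22 and 30.9, 22.2 and 23.0 CPM at CT19. The log2 fold change of Per2 was -0.48 (95% interval -1.13 to 0.16), and it was -0.94 without CT22 replicate 6, -0.17 without CT22 replicate 3 and -0.26 without CT19 replicate 1. Per2 was near the low end of its wild type day, where it averaged 15.5 CPM at CT1, 136.9 CPM at CT10, 25.3 CPM at CT19 and 18.1 CPM at CT22.

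Nr1d1 and Nr1d2, which encode the REV-ERB repressors, differed in direction. Nr1d1 had 101.6, 110.8 and 99.996 CPM at CT22, against 83.6, 95.2 and 78.3 CPM at CT19, without overlap. The log2 fold change of Nr1d1 was 0.28 (95% interval -0.02 to 0.58, adjusted p = 0.752), and its exons overlap those of Thra on the opposite strand. Nr1d2 had 58.7, 55.8 and 78.7 CPM at CT22 and 72.4, 77.9 and 90.3 CPM at CT19. For Nr1d2 the log2 fold change was -0.32 (95% interval -0.62 to -0.01, unadjusted p = 0.043, adjusted p = 0.747), and it was -0.17 without CT22 replicate 3, -0.19 without CT19 replicate 4 and -0.49 without CT22 replicate 6. The difference between these members of one family was not tested.

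Usp2, a deubiquitinase that acts on clock proteins and is itself a clock target, was the E-box list gene furthest from 0 (ENSMUSG00000032010, GRCm38 chromosome 9, 44067021 to 44095627, plus strand). It had 36.4, 53.8 and 27.4 CPM at CT22, against 110.6, 60.1 and 56.7 CPM at CT19. CT19 replicate 1 stood apart at the top, and every CT22 library was below every CT19 library. It differed by -0.95 on the log2 scale (SE 0.23, adjusted p = 0.735). It was -0.53 without CT19 replicate 1, the library with the most rod RNA, and -0.57 when the rod score was fitted too. Ciart, a further repressor, was low at both times, with 2.36, 1.75 and 3.29 CPM at CT22 and 2.71, 2.73 and 3.25 CPM at CT19, beside a mean of 55.3 CPM at CT10.

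The limb of the loop around Arntl was mixed, with 3 of 8 genes higher. Arntl itself had 46.3, 70.5 and 43.0 CPM at CT22, against 74.9, 49.6 and 43.9 CPM at CT19, a log2 fold change of -0.08 (95% interval -0.72 to 0.57) that ran from -0.29 without CT22 replicate 3 to 0.24 without CT19 replicate 1. Npas2, which can stand in for CLOCK, had 6.72, 3.64 and 6.95 CPM at CT22 and 3.52, 1.57 and 2.23 CPM at CT19. Its groups did not overlap, but its interval was wide, at -0.39 to 2.87 around a log2 fold change of 1.24.

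All 12 other clock regulators, which include kinases and ubiquitin ligases of clock proteins, had a lower mean at CT22, with a median of -0.13 beside -0.06 over all genes. Sirt1, a deacetylase that acts on PER2 and BMAL1, had 14.5, 12.5 and 10.9 CPM at CT22, against 16.6, 18.3 and 23.4 CPM at CT19. Its groups did not overlap, with a log2 fold change of -0.62 (SE 0.21, adjusted p = 0.735). For the casein kinase gene Csnk1d the interval was narrow, at -0.35 to 0.28.

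**Figure D3:**
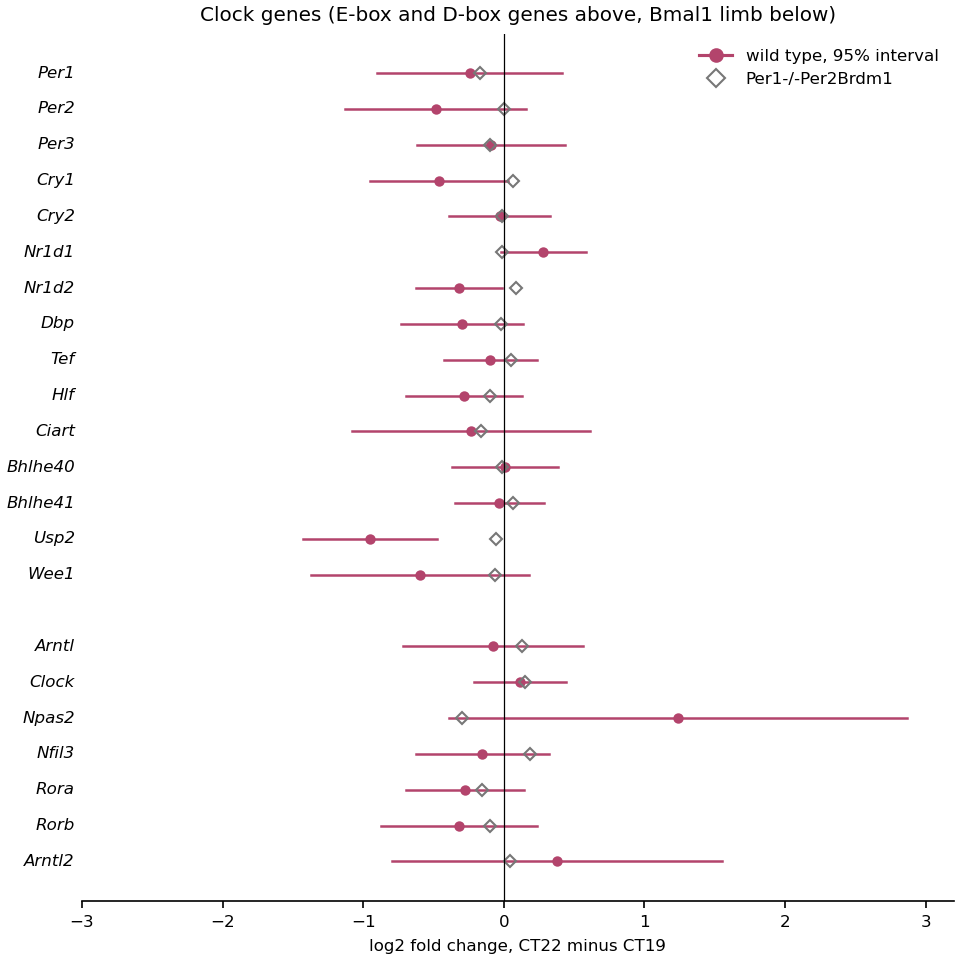
Log2 fold change (CT22 minus CT19) of 22 genes of the E-box and D-box list and the Bmal1 limb in wild type RPE (filled points, bars are 95% intervals) and in Per1-/-Per2Brdm1 RPE (open diamonds). Usp2 at -0.95 and Nr1d2 at -0.32 have wild type intervals on the lower side of 0, and the intervals of the other genes drawn include 0.

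Promoters of 4 genes, from RefSeq on GRCm38.p6, are shown. Per1, Ciart and Usp2 were picked from the clock genes read above, and Hkdc1 is the leading higher gene. The other clock genes are not printed, so these windows do not stand for them. Each window is the 250 bases before a RefSeq transcript start, 5′ to 3′ on the gene's strand. For each gene that start lies inside the annotated gene span. The Per1 and Usp2 windows lie wholly inside it and do not show the sequence before the gene's outermost start. The Ciart and Hkdc1 windows reach past that outermost start but overlap the gene in part. RefSeq lists a second Per1 start, whose window (chr11:69099902-69100151) held none of the motifs and is not printed. Capitals mark the E-box CACGTG, the D-box TTATGNAA and the ROR element core AGGTCA on either strand, and no marked motifs overlap.
Per1 (chr11:69098699-69098948, plus strand): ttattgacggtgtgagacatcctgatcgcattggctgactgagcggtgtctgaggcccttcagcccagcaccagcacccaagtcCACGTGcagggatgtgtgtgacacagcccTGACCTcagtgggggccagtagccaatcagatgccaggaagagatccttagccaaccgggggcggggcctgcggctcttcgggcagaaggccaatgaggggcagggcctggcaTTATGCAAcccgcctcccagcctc
Ciart (chr3:95882229-95882478, minus strand): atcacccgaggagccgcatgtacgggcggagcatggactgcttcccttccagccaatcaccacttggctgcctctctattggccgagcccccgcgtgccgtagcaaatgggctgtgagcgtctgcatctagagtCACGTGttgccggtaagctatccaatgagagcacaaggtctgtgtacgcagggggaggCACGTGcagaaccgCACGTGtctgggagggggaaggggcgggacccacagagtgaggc
Usp2 (chr9:44084670-44084919, plus strand): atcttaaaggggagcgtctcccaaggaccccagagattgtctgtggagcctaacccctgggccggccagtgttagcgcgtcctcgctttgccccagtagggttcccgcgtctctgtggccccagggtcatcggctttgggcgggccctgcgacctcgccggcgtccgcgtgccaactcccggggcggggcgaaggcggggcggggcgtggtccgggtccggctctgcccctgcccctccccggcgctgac
Hkdc1 (chr10:62422458-62422707, minus strand): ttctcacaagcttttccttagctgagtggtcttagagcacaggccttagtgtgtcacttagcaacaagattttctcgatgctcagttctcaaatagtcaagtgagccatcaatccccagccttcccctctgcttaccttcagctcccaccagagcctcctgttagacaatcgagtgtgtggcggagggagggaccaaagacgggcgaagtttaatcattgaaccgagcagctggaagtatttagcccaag

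The printed Per1 window held 1 E-box at -166, 1 ROR core at -137 and 1 D-box at -24 from the start, and the Ciart window held 3 E-boxes at -116, -58 and -44. The Usp2 and Hkdc1 windows held none of these letters. Over 32851 windows of the same length, 6.02% held the E-box, 3.07% the D-box and 14.0% the ROR core. A window was found for 19 of the 23 clock genes, and 5 of those held an E-box in at least 1 window: Bhlhe41, Ciart, Cry1, Per1 and Tef. Of the same 19 genes, 2 held a D-box and 4 a ROR core. These are counts of genes, which can have more than 1 window, while the shares above are of windows, so they are not directly comparable. These matches describe letters only, and no binding was measured.

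Outer segment uptake genes gave small and mixed differences. Of 28 genes, 12 had a higher and 16 a lower mean at CT22, none passed, none had an unadjusted p under 0.05, and the median log2 fold change was -0.05. It was -0.13 without CT22 replicate 6 and -0.23 when the rod score was fitted. Mertk, the receptor tyrosine kinase that triggers ingestion, averaged 198 CPM at CT22 and 210 CPM at CT19, with an interval of -0.50 to 0.33. For Itgb5, the integrin subunit that times binding of outer segments, the interval was -0.51 to 0.51. A halving or doubling of either gene was thus outside its interval. Mfge8, the bridging ligand of that integrin, had 80.2, 69.0 and 80.7 CPM at CT22 and 117.2, 97.3 and 83.7 CPM at CT19, without overlap, and a log2 fold change of -0.38 (adjusted p = 0.75), which was -0.19 without CT19 replicate 1. Myo7a, a motor protein that moves phagosomes and melanosomes, was the opposite case, with 455, 333 and 348 CPM at CT22 and 269, 330 and 229 CPM at CT19. It did not overlap either, and its log2 fold change was 0.46 (95% interval -0.02 to 0.94).

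Phagosome and lysosome genes leaned lower as a list, with 37 of 39 lower at CT22, a median log2 fold change of -0.18, and groups that did not overlap for 11 lower genes. The median was -0.34 when the rod score was fitted, -0.09 under upper quartile scaling, and -0.12 without CT22 replicate 3 or without CT19 replicate 4. The vacuolar proton pump, which acidifies lysosomes, contributed 9 of the genes, and 8 of those were lower. Atp6v1d, a pump subunit, had 113.5, 114.6 and 109.0 CPM at CT22, against 147.8, 154.0 and 172.3 CPM at CT19, and a log2 fold change of -0.49 (95% interval -0.83 to -0.16, adjusted p = 0.735). The protease gene Ctsd, with 2269 to 2390 CPM at CT22 and 2089 to 3031 CPM at CT19, overlapped. Tfeb, a master regulator of lysosomal genes, was at 14.2 to 18.5 CPM at CT22 and 19.2 to 22.3 CPM at CT19.

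The melanin pathway was also lower in most members, with 11 of 15 genes lower and a median of -0.24. This was -0.49 when the rod score was fitted, -0.38 without CT22 replicate 1, -0.15 without CT19 replicate 4 and -0.14 without CT22 replicate 6. Dct, a melanin synthesis enzyme, had 2441, 2808 and 1521 CPM at CT22, against 3691, 3904 and 3500 CPM at CT19. Every CT22 library was below every CT19 library, and the log2 fold change was -0.71 (SE 0.25, adjusted p = 0.735). Pmel, the fibril protein of melanosomes, had 506, 316 and 253 CPM at CT22 and 1299, 429 and 472 CPM at CT19. Its groups overlapped, and its log2 fold change of -1.03 was -0.28 without CT19 replicate 1. Exons of Pmel overlap those of Cdk2 on the opposite strand.

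Visual cycle genes had a median of -0.16, with 14 of 15 lower. The median was 0.03 without CT19 replicate 2, -0.09 without CT19 replicate 4, -0.26 without CT22 replicate 6, and -0.37 when the rod score was fitted. The members furthest from 0 are ones that photoreceptors make: Rbp3, the retinoid carrier between the cell layers, had 495, 606 and 592 CPM at CT22 and 2014, 1264 and 745 CPM at CT19, a log2 fold change of -1.25, or -0.78 without CT19 replicate 1. It is also 1 of the 21 rod markers. Among members that RPE cells express, Rgr, a retinal G protein-coupled receptor, stood near 0 and was the 1 list member with a higher mean. Rpe65 was at -0.10 and Lrat at -0.16, and they were at -0.44 and -0.57 when the rod score was fitted. Rgr had 17688, 14819 and 18219 CPM at CT22 and 11045, 20774 and 16763 CPM at CT19, with a log2 fold change of 0.06, and of -0.28 when the rod score was fitted.

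Among metabolic lists, glycolysis and cholesterol genes had the lowest medians. Of 27 glycolysis and lactate genes, 24 were lower at CT22, with a median of -0.41, which was -0.18 without CT19 replicate 1. Pkm, the last enzyme of glycolysis, had 823, 1029 and 525 CPM at CT22, against 1885, 1148 and 954 CPM at CT19, with a log2 fold change of -0.75 (95% interval -1.43 to -0.06), and of -0.36 without CT19 replicate 1. Hkdc1 was the 1 member of the list with a higher mean and an unadjusted p under 0.05, beside 6 with a lower mean. The list's median was -0.16 when the rod score was fitted, and the part of rod RNA in it was not tested. The lactate transporter of the RPE, Slc16a8, was at 1505 to 1705 CPM at CT22 and 1291 to 2053 CPM at CT19, with a log2 fold change of -0.03.

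Cholesterol genes were lower in 21 of 22 tested members, with a median of -0.48, groups that did not overlap for 8 lower genes, and a median of -0.54 when the rod score was fitted too and -0.31 without CT19 replicate 4. Dhcr7, the enzyme of the last step of cholesterol synthesis, had 28.7, 35.9 and 36.2 CPM at CT22, against 52.7, 46.8 and 50.1 CPM at CT19. Its groups did not overlap, with a log2 fold change of -0.57. Insig1, which holds back the transcription factor SREBP, had 46.0, 70.2 and 40.8 CPM at CT22 and 88.7, 81.8 and 109.4 CPM at CT19, a log2 fold change of -0.83. Sqle, by contrast, spread over 52.6 to 212 CPM at CT22 and 67.8 to 194 CPM at CT19, and its interval was -1.69 to 1.61.

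Oxidative phosphorylation genes of the nucleus were lower in 37 of 37 members, by a median of -0.21, which was -0.09 without CT19 replicate 1, -0.12 without CT22 replicate 1 or under upper quartile scaling, and -0.09 when the rod score was fitted. Glucocorticoid-induced genes were lower in 12 of 12, with a median of -0.26, and of -0.17 without CT22 replicate 6. Tsc22d3, a classic glucocorticoid target, had 34.0, 26.1 and 30.9 CPM at CT22 and 38.7, 39.9 and 50.8 CPM at CT19, with a log2 fold change of -0.51 (95% interval -0.88 to -0.13, adjusted p = 0.735), and of -0.34 without CT19 replicate 4. Heat shock genes were lower in 13 of 14, with a median of -0.25, which was -0.10 without CT19 replicate 1, -0.11 without CT22 replicate 1 and -0.09 when the rod score was fitted. The shift of all genes depended on scaling, with medians of -0.01 under RLE and 0.03 under upper quartile scaling, beside -0.06 under TMM.

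**Figure D4:**
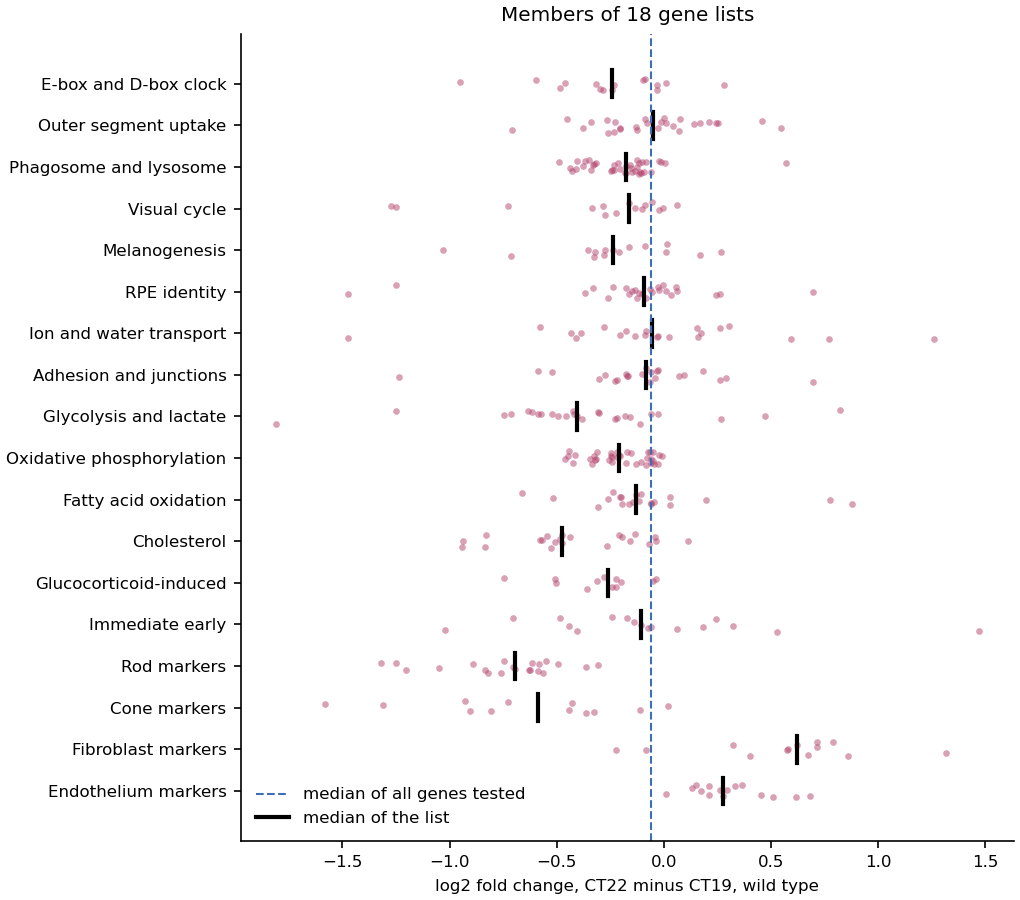
Log2 fold change (CT22 minus CT19, wild type) of the members of 18 gene lists (points, spread vertically to show them apart), with the median of each list (black bar) and the median of all genes tested (dashed line, -0.06). Rod and cone marker genes and glycolysis and cholesterol genes lie mostly below 0, and fibroblast and endothelium markers mostly above.

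The Per1-/-Per2Brdm1 libraries gave a second CT22 and CT19 pair. Per1 and Per2 are the genes altered in these mice, and their counts were not low in the libraries with that label: Per2 was at 10.8 to 30.9 CPM in wild type at these times, against 141.8, 76.6 and 98.5 CPM at CT22 and 75.4, 127.1 and 114.3 CPM at CT19 in the Per1-/-Per2Brdm1 libraries. Counts over a whole gene need not show the alleles. Between CT22 and CT19 in the libraries labelled Per1-/-Per2Brdm1, 0 of the 20275 genes (0%) passed, and 231 had an unadjusted p under 0.05. The test of the difference, the wild type change minus the Per1-/-Per2Brdm1 change, called 0 genes (0%), with 784 genes at an unadjusted p under 0.05 and a smallest adjusted p of 0.995. DESeq2 called 2 genes in that difference.

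Hkdc1 had 23.2, 15.3 and 21.7 CPM at CT22 and 27.6, 25.2 and 26.5 CPM at CT19 in the libraries labelled Per1-/-Per2Brdm1, so all CT22 values were below all CT19 values. Its log2 fold change was 0.82 in wild type, against -0.40 there. The wild type minus Per1-/-Per2Brdm1 difference was 1.22 (95% interval 0.62 to 1.82, unadjusted p = 0.00028, adjusted p = 0.995), and did not pass. Egr1 had 31.9, 20.2 and 16.7 CPM at CT22 and 8.02, 9.13 and 6.76 CPM at CT19 in the same libraries. Its log2 fold change was 1.47 in wild type and 1.52 there, with the CT22 group above the CT19 group in both genotypes. Usp2 was at 114.6 to 155.6 CPM at CT22 and 112.6 to 164.6 CPM at CT19, with a log2 fold change of -0.06.

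Of the 20 leading wild type genes, 11 had a fold change of the same sign and 9 of the opposite sign in the libraries labelled Per1-/-Per2Brdm1, and 2 of the 20, Hkdc1 and Egr1, did not overlap there. Over all genes tested in those libraries, 2.51% were higher and 1.98% lower at CT22 without overlap. These genes were chosen for their wild type values, so their differences between genotypes are a description. Rod genes had a median log2 fold change of -0.69 in wild type, against 0.01 in the libraries labelled Per1-/-Per2Brdm1, and the E-box and D-box genes a median of -0.24 in wild type, against -0.01. Other lists kept their sign: cone markers had -0.59 against -0.32, cholesterol genes -0.48 against -0.21, and endothelium markers 0.28 against 0.22. Some changed sign, such as oxidative phosphorylation genes, at -0.21 against 0.14, and heat shock genes, at -0.25 against 0.15. All these lists were picked after their values were seen.

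**Figure D5:**
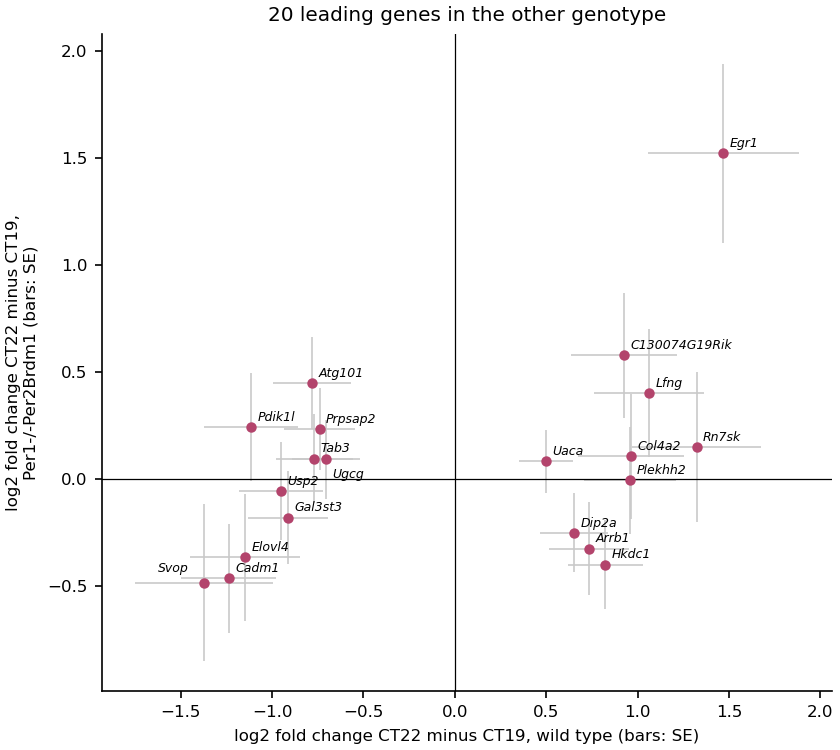
Log2 fold change (CT22 minus CT19) of the 20 leading wild type genes in wild type RPE (horizontal axis) and in Per1-/-Per2Brdm1 RPE (vertical axis), with bars of 1 SE. Egr1 lies at 1.47 and 1.52, Hkdc1 at 0.82 and -0.40, and 11 of the 20 genes have the same sign in both genotypes.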

How the data were processed

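The authors deposited whole, unnormalized read counts for each of 54232 Ensembl genes. The submitters' processing notes name Trimmomatic 0.32, HISAT2 2.1.0, Cufflinks and HTSeq 0.11, and the build GRCm38.p6. What each tool did, which annotation was counted and whether strand was used is not given in the sources used here. Genes that overlap on opposite strands thus have uncertain counts. Coordinates came from the mouse GENCODE M21 annotation. Symbols came from a separate reference of gene names, in which 153 identifiers had none.

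The test was that of edgeR 4.0.16 (R 4.3.3): filterByExpr (minimum count 10), TMM scaling, and 1 quasi-likelihood model of 8 group means over 24 libraries with 16 residual degrees of freedom. The threshold was 0.05 after Benjamini-Hochberg adjustment over all genes tested. CPM values use TMM library sizes, and 95% intervals the SE of the log2 fold change. Library pairs within wild type CT22 and within wild type CT19 were checked for repeats, and none was one (lowest chi-square per degree of freedom 44.6). Pairs across the times and pairs of the other libraries were not checked. DESeq2 1.42.0, limma 3.58.1, other scalings and filters, marker scores (mean log2(CPM + 1)) as covariates and single libraries left out were alternatives.

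Named genes were the tested clock genes, the 10 genes a direction with the smallest p at 5 CPM or more, and the 3 most abundant genes of each of 32 lists. Defining cell type markers were named too. Further list members, such as Pkm, Mertk, Dhcr7 and Tsc22d3, were named by choice outside these rules. Some genes of these lists are not reported here. Members, lists and tests were chosen with earlier results of these data known.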

Additional observations from a re-analysis of the deposited data

How the results depend on the processing

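In wild type, 0 genes also passed under RLE and upper quartile scaling, a filter at a mean of 5 CPM, limma voom, fits of the 6 libraries or of the 12 wild type libraries, the rod and choroid scores as covariates, and dispersions not robust (chosen after seeing the data). Leaving out each library gave 0 to 0 genes. DESeq2 called 5, of which 1 was higher (Ighg2b) and 4 were lower (Ccdc150, Myh2, Klk1b22, Zfp59), 1 in the libraries labelled Per1-/-Per2Brdm1 and 2 in the difference. These 5 are named after their values were seen, and edgeR's unadjusted p was over 0.05 for Myh2 and Ighg2b. DESeq2's log2 fold changes were 19.5 for Ighg2b, -20.8 for Myh2, -22.8 for Klk1b22, -6.43 for Ccdc150 and -1.95 for Zfp59. For Myh2 and Klk1b22, edgeR without a filter on low counts gave -6.88 and -8.77, so the extreme sizes depended on the tool and are not read as measured changes. Without a filter on low counts edgeR called 188 genes in wild type, of which 74 were higher and the others lower, 77 in the libraries labelled Per1-/-Per2Brdm1 and 54 in the difference, with the same counts when dispersions were also not robust. There the prior degrees of freedom were infinite, so each gene took the common trend as its spread: the quasi-dispersion of Cryaa was 1.22, against 16.9 with the filter. Of the 188, 70 had an unadjusted p of 0.05 or more with the filter. No log2 fold change of the 20 leading genes changed sign under the 18 alternatives. Those genes were chosen for their small p in these same libraries, which favours such an outcome, so it lends them no support. Over all named genes, 268 of 2785 values changed sign, and 42 of 612 medians did. Medians of outer segment uptake, adhesion and ion transport genes lay at 0.04, 0.01 and 0.03 under upper quartile scaling, against -0.05, -0.08 and -0.06. No paired analysis was possible because CT22 and CT19 share only the number 1.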

Other observations

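Genes of lens fibre cells, such as the crystallins that keep the lens clear, were present in the captured RPE and differed mainly by library. The list of 16 lens genes was added after its values were seen, so it is described with no test. The list does not hold every crystallin: of all 16 tested alpha, beta and gamma crystallin genes, 13 had a higher and 3 a lower mean at CT22, and Cryga, which is not listed, had a log2 fold change of -1.21 (SE 1.47). The groups overlapped for each of these crystallin genes. The summed level was 830, 2897 and 13400 CPM in CT22 replicates 1, 3 and 6, against 3338, 3215 and 1403 CPM in CT19 replicates 1, 2 and 4. CT22 replicate 6 was the highest of the 6 and CT22 replicate 1 the lowest. Cryaa, an alpha crystallin gene, had 196.9, 965.2 and 3307 CPM at CT22 and 826.6, 912.3 and 285.8 CPM at CT19. Its log2 fold change of 1.14 was -0.22 without CT22 replicate 6.

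Muscle genes gave a similar case of spread within a group. The summed level of 13 muscle markers was 10.3, 39.9 and 5.44 CPM at CT22 and 14.995, 114.4 and 4.43 CPM at CT19, with CT19 replicate 2 the highest. Their median log2 fold change of -1.24 ran from -3.04 to 1.54 when single libraries were left out. The part of lens and muscle RNA in the other comparisons was not tested.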
